A study of Mus musculus with 16 samples.

Results

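The transcripts described here encode the proximal signalling unit of the B cell receptor: its 2 signal-transducing chains, 4 kinases of the Src family, the kinases Syk and Btk, the adaptor Blnk and the phospholipase Plcg2. These 10 genes, Cd79a, Cd79b, Lyn, Blk, Fyn, Fgr, Syk, Btk, Blnk and Plcg2, were taken by symbol from the 38355 genes of the expression table, and each symbol matched 1 gene. They were measured by RNA-seq of mRNA in 16 libraries from 4 B cell subsets sorted from spleens of C57BL/6 mice. The tested animals lacked the microRNA gene Mir146a throughout the body (Mir-146a-/-, called KO) and the others were wild type (WT), with no age given in the labels. In each genotype the subsets were transitional T1 cells (CD23-, AA4+, IgM high, CD21 negative to low), transitional T2 cells (CD23+, AA4+, IgM high, CD21 low), marginal zone (MZ) cells (CD23-, AA4-, IgM high, CD21 high) and follicular (FO) cells (CD23+, AA4-, IgM low, CD21 intermediate), with 2 libraries each, each labelled a replicate and made from the pooled spleens of several mice.

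On a B cell, membrane immunoglobulin recognises antigen but has almost no cytoplasmic part, so the signal passes through the tails of the Cd79a and Cd79b heterodimer. Src family kinases, chiefly Lyn with Blk and Fyn, phosphorylate the tyrosine motifs of those tails, and Syk docks there and becomes active. Syk phosphorylates Blnk, and phosphorylated Blnk gathers Btk and Plcg2, whose product opens the calcium and protein kinase C branches. T1 and T2 cells are newly arrived B cells that mature in the spleen, and MZ cells are known to answer blood-borne antigen faster than FO cells do.

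Levels are given in RPKM, reads normalised to exon length and to the mapped reads of the library. This scale allows for length and depth, but not for highly expressed genes that take up different shares of libraries, as in T1 below. At the annotated exon length the RPKM values corresponded to whole numbers of reads for 13395 of the 23194 genes above 0. For the others, Blk and Plcg2 among them, a length that gave whole reads was searched for. The library totals used for scaling, inferred from the steps of the RPKM values, ran from 9003343 to 26386684 reads. They were not given by the authors. Every one of the 10 genes was measured in every library, and the fewest reads behind a value were the 187 of Fgr in KO T1 replicate 1. The markers of the sort followed the gates, and the B cell markers Ms4a1 (581 to 2464 RPKM), Cd22 (306 to 573 RPKM) and Pax5 (89.8 to 142 RPKM) were high in every library. The T1 libraries stood apart: plasma cell markers summed to 479 to 4057 RPKM there, against 52.1 to 74.2 RPKM in T2, 43.2 to 61.0 RPKM in MZ and 33.9 to 49.9 RPKM in FO. In KO T1 replicate 2 and WT T1 replicate 2 the 10 highest genes, led by Igkc, held 25.7% and 22.9% of all RPKM. The genotype could not be checked in these libraries, since the Mir146 locus was at 0 in all but 2 WT FO libraries with 1 read each.

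All 10 genes were expressed in all 4 subsets, in nearly the same order. Cd79b and Cd79a were by far the highest, at 1214 to 1764 RPKM for the subset means of Cd79b and 893 to 1433 RPKM for those of Cd79a. Blk came next in every subset, with subset means of 202 to 473 RPKM (n = 4 libraries each), and was above Lyn, Syk and Plcg2 throughout. Syk averaged 138 to 199.7 RPKM, Lyn 115 to 185 RPKM, Plcg2 89.2 to 139 RPKM, Btk 80.0 to 105 RPKM and Blnk 59.0 to 105 RPKM. Fyn and Fgr were an order lower, with subset means of 8.59 to 17.4 RPKM and 4.47 to 14.7 RPKM. Within this order only Lyn, Syk, Blnk, Btk and Plcg2 exchanged places between subsets: Lyn was above Syk in MZ only, where Blnk was also above Btk and Plcg2, and Plcg2 was above Lyn in FO only.

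**Figure D1:**
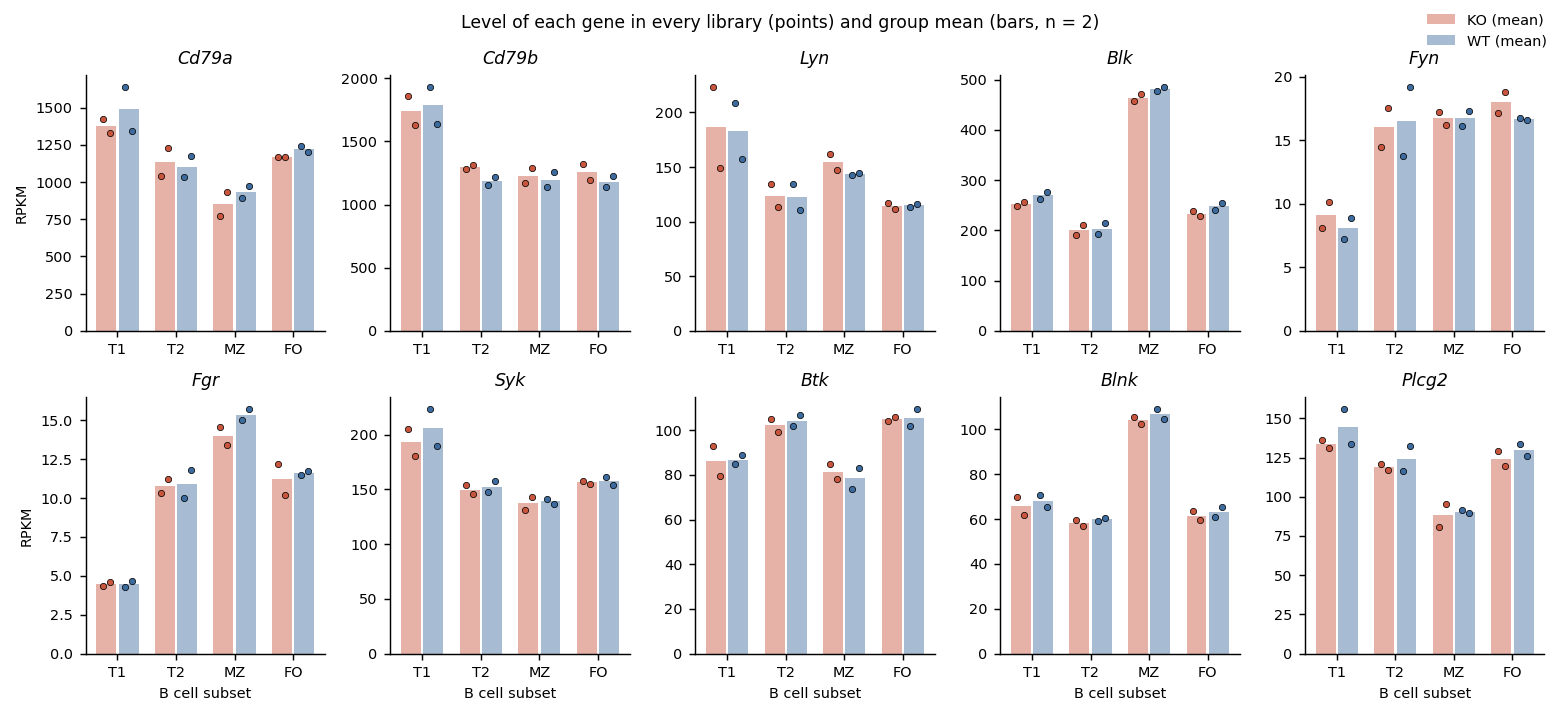
RPKM of each of the 10 genes by subset (T1, T2, MZ, FO), with KO on the left and WT on the right of each pair; points are the 2 libraries of a group and bars their mean. Blk and Blnk stand highest in MZ, at 457 to 486 and 103 to 109 RPKM, Fgr and Fyn are lowest in T1, and KO and WT run side by side throughout.

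The first comparison asked how the receptor unit changed as T1 cells became T2 cells. Of the 10 genes, 3 were higher and 5 lower in T2 than in T1 with both genotypes averaged, where 15.7% and 9.89% of the 12507 genes tested were higher and lower. The rises were in the low-abundance Src kinases Fgr and Fyn and in Btk, and the falls in Cd79b, Lyn, Syk, Blk and Blnk. The median log2 difference of the 10 was -0.27, beside 0.08 for all genes tested. Only Fgr was beyond a 2-fold difference, the size criterion of the study, which 5.43% of all genes passed.

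Fgr, a Src family kinase best known from myeloid cells, had 10.3 and 11.2 RPKM in KO T2 and 9.98 and 11.8 RPKM in WT T2, against 4.33 and 4.62 RPKM in KO T1 and 4.25 and 4.69 RPKM in WT T1. The lowest T2 library was above all 4 T1 libraries by more than the whole spread within either subset. The log2 difference was 1.18 ± 0.080 (SE; adjusted p = 8.1e-06), a 2.42-fold ratio of the means. Fyn, the kinase shared with T cell receptor signalling, had 14.5 and 17.6 RPKM in KO T2 and 13.8 and 19.2 RPKM in WT T2, against 8.06 and 10.1 RPKM in KO T1 and 7.25 and 8.88 RPKM in WT T1. All T2 values of Fyn were again above all T1 values, with a log2 difference of 0.88 ± 0.12 (SE; adjusted p = 0.00043). Btk, a Tec family kinase needed for activation of Plcg2, was 0.26 higher on the log2 scale in T2 (SE 0.069, adjusted p = 0.020), with 99.2 to 107 RPKM in T2 and 79.7 to 92.8 RPKM in T1.

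Markers of other cell types were read beside these rises. The 13 myeloid markers summed to 80.3 to 140 RPKM in T2 libraries. In T1 they summed to 19.4 and 108 RPKM in KO and to 14.6 and 32.8 RPKM in WT, so only the highest T1 library overlapped with T2. In T2 2 of the markers, and in T1 3, were under 1 RPKM in every library of the subset. Of the 11 tested, 2 were called higher and 0 lower in T2, where 15.7% and 9.89% of all genes were. The median log2 difference of the 11 was 1.56 (0.01 to 2.32), beside 0.08 for all genes tested. The 9 T cell markers summed to 8.78 to 34.4 RPKM in T2, against 3.82 to 23.5 RPKM in T1, and overlapped, with 0 of the 9 called higher or lower. Their median log2 difference was 0.54 (0.28 to 1.13). In the MZ libraries the myeloid sum was 23.8 to 67.1 RPKM and Fgr was at 13.4 to 15.7 RPKM. In bulk RNA of sorted cells, fewer cells of a type and less RNA per cell cannot be told apart, and the part of these markers in the rises of Fgr and Fyn was not tested.

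Cd79b, the receptor chain that governs internalisation, had 1282 and 1315 RPKM in KO T2 and 1152 and 1218 RPKM in WT T2, against 1858 and 1627 RPKM in KO T1 and 1933 and 1636 RPKM in WT T1. The T1 and T2 ranges were apart, and the log2 difference was -0.50 ± 0.12 (SE; adjusted p = 0.0096). Cd79a moved alike in size (log2 difference -0.36 ± 0.12, SE) but its adjusted p of 0.053 missed the threshold, which it passed with the replicate number as a block (0.045). Lyn, which starts the signal and also restrains it through inhibitory receptors, had 134 and 113 RPKM in KO T2 and 134 and 111 RPKM in WT T2, against 224 and 149 RPKM in KO T1 and 209 and 157 RPKM in WT T1. Lyn was the most uneven of the 10 between T1 libraries, the 2 libraries numbered 1 lying well above the 2 numbered 2, yet all 4 were above the T2 range (log2 difference -0.57 ± 0.13, SE, adjusted p = 0.011).

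Syk, the kinase that carries the signal from the chains to the adaptor, was lower in T2 by a log2 difference of -0.40 ± 0.073 (SE; adjusted p = 0.0028), with 146 to 158 RPKM in T2 and 180.4 to 223 RPKM in T1. Blk, a Src family kinase largely restricted to B cells, was lower by -0.37 ± 0.068 (SE; adjusted p = 0.0028), with 191 to 214 RPKM in T2 and 248 to 276 RPKM in T1. The smallest called fall was that of Blnk, at -0.18 ± 0.060 (SE; adjusted p = 0.046). Plcg2 (-0.19 ± 0.078, SE, adjusted p = 0.098) did not pass, and its T2 and T1 libraries overlapped. The plasma cell transcripts of the T1 libraries stand beside these falls and beside the rises above alike, and their part in either was not tested. With both T1 libraries numbered 2 left out, 8 of the 10 genes again passed, with Cd79a (adjusted p = 0.034) in place of Btk (log2 difference 0.22, adjusted p = 0.063).

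These T1 calls depended on the fit. In a fit of the T1 and T2 libraries alone only Fgr and Fyn passed, the adjusted p being 0.12 for Cd79b, 0.079 for Lyn, 0.058 for Blk, 0.052 for Syk, 0.11 for Btk and 0.19 for Blnk. With quantile normalization only 3 genes passed, and the falls of Cd79b, Syk and Blk shrank to -0.15, -0.20 and -0.09. With no filter on low values the call of Cd79b ended (adjusted p = 0.15). With median-ratio scaling the rise of Btk was no longer called (log2 difference 0.17, adjusted p = 0.054). The falls of Cd79a (-0.44, adjusted p = 0.025) and Plcg2 (-0.28, adjusted p = 0.034) were then called. The call of Blnk ended when any 1 of 14 libraries was left out (adjusted p 0.058 to 0.13), and that of Btk without KO T1 replicate 2, KO T2 replicate 1, WT T1 replicate 1 or WT T2 replicate 2 (adjusted p 0.055 to 0.059).

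MZ cells were compared with T2 cells next. Of the 10 genes, 3 were higher (Blk, Blnk and Fgr) and 2 lower (Plcg2 and Btk) in MZ with genotypes averaged, where 22.8% and 19.1% of all genes were higher and lower. The median of the 10 was 0.01 on the log2 scale, beside 0.02 for all genes tested. Blk alone was called beyond 2-fold, beside 10.8% of all genes tested.

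Blk had 457 and 471 RPKM in KO MZ and 477 and 486 RPKM in WT MZ, against 191 and 210.1 RPKM in KO T2 and 193 and 214 RPKM in WT T2. All 4 MZ libraries were at more than double the level of any T2 library, and the highest value in any other subset was 276 RPKM. The log2 difference was 1.23 ± 0.068 (SE; adjusted p = 3.0e-07). The gene lies at chr14:63372836-63417037 on the minus strand of GRCm38, and Blnk at chr19:40928927-40994535, also on the minus strand. Blnk, the adaptor that brings Btk and Plcg2 together, had 106 and 103 RPKM in KO MZ and 109 and 105 RPKM in WT MZ, against 59.5 and 56.8 RPKM in KO T2 and 59.3 and 60.3 RPKM in WT T2. Its 4 MZ values also lay above every value of the other subsets (log2 difference 0.83 ± 0.060, SE, adjusted p = 1.9e-06). Fgr had 14.6 and 13.4 RPKM in KO MZ and 15.0 and 15.7 RPKM in WT MZ, above the 9.98 to 11.8 RPKM of T2, with a log2 difference of 0.42 ± 0.080 (SE; adjusted p = 0.0016).

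The enzymes that Blnk gathers went the other way. Plcg2, the phospholipase that makes inositol trisphosphate and diacylglycerol, had 80.5 and 95.6 RPKM in KO MZ and 91.4 and 89.4 RPKM in WT MZ, against 121 and 117 RPKM in KO T2 and 116 and 132 RPKM in WT T2. Its MZ values were the lowest of any subset and did not overlap with T2 (log2 difference -0.45 ± 0.078, SE, adjusted p = 0.00098). Btk had 84.8 and 78.2 RPKM in KO MZ and 73.9 and 83.2 RPKM in WT MZ, against 105 and 99.2 RPKM in KO T2 and 102 and 107 RPKM in WT T2. Here too the ranges were apart, with a log2 difference of -0.37 ± 0.069 (SE; adjusted p = 0.0015).

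The remaining 5 genes did not pass between MZ and T2. Cd79a had 771 and 934 RPKM in KO MZ and 894 and 972 RPKM in WT MZ, against 1041 and 1226 RPKM in KO T2 and 1032 and 1172 RPKM in WT T2. The MZ libraries were all below the T2 libraries, but the adjusted p of 0.052 missed the threshold (log2 difference -0.33 ± 0.12, SE). For Lyn the log2 difference was 0.28 (95% interval -0.02 to 0.57, adjusted p = 0.12), although its 4 MZ values of 143 to 162 RPKM were above its 4 T2 values of 111 to 134 RPKM. Without the 4 T1 libraries in the fit both passed, Cd79a at adjusted p = 0.029 and Lyn at 0.021, and with the replicate number as a block both passed as well (0.046 and 0.048). The intervals of Cd79b (-0.29 to 0.22), Fyn (-0.21 to 0.31) and Syk (-0.29 to 0.03) lay around 0.

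Within genotypes the same 5 genes passed between MZ and T2 in KO and in WT, where 24.9% and 28.8% of all genes passed. Blk was higher by 1.21 ± 0.096 in KO and 1.24 ± 0.096 in WT on the log2 scale (SE), and Blnk by 0.83 ± 0.085 in KO and 0.83 ± 0.085 in WT (SE), the 4 adjusted p-values being 1.2e-05, 9.2e-06, 6.2e-05 and 5.6e-05. Fgr (0.37 in KO, 0.48 in WT), Btk (-0.33 in KO, -0.41 in WT) and Plcg2 (-0.44 in KO, -0.46 in WT) passed in each genotype with adjusted p from 0.0093 to 0.037. In a fit of the 4 compared libraries alone, only Blk and Blnk passed in KO. In KO, the call of Fgr ended without any 1 of 8 libraries (adjusted p 0.055 to 0.19), that of Btk without any 1 of 5 (0.050 to 0.15) and that of Plcg2 without T2 replicate 1 or MZ replicate 1 (0.076 and 0.13). In WT, the call of Fgr ended without T2 replicate 1 or MZ replicate 2 (0.075 and 0.062), that of Btk without MZ replicate 1 (0.095) and that of Plcg2 without T2 replicate 2 or either MZ library (0.054 to 0.066).

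**Figure D2:**
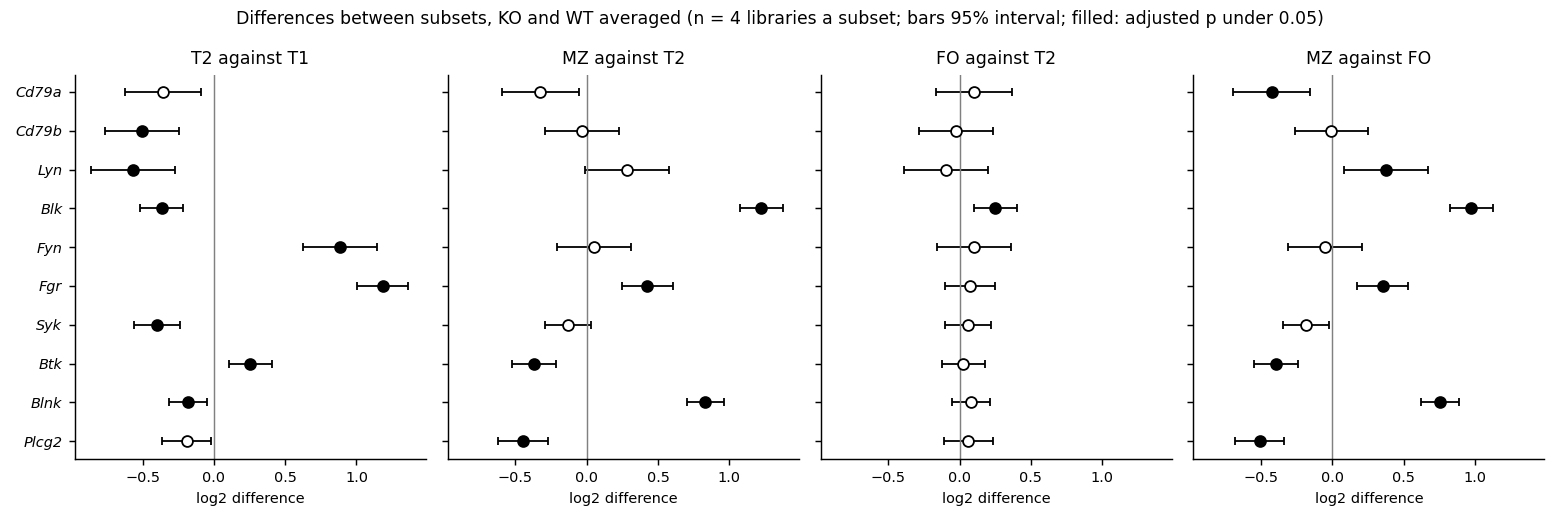
log2 difference of each of the 10 genes in 4 comparisons between subsets, genotypes averaged; points are the fitted differences, bars their 95% intervals, and filled points have an adjusted p under 0.05. Blk and Blnk are far to the right in both MZ panels (1.23 and 0.83 against T2, 0.97 and 0.75 against FO), while the FO against T2 panel lies near 0.

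Between FO and T2 cells the receptor unit held a single call. Of the 10 genes, 1 was higher and 0 were lower in FO than in T2, where 4.72% and 4.88% of all genes were higher and lower and 1.14% were called beyond 2-fold. Blk had 238 and 229 RPKM in KO FO and 242 and 255 RPKM in WT FO, just above the 191 to 214 RPKM of T2. Its log2 difference was 0.25 ± 0.068 (SE; adjusted p = 0.045), and this call ended without any 1 of 10 libraries (adjusted p 0.058 to 0.18), with no filter on low values, with quantile normalization and in a fit of FO and T2 alone. The other 9 differences ran from -0.10 for Lyn to 0.10 for Cd79a, and their FO and T2 libraries overlapped. Within KO none of the 10 passed, where 0% of all genes passed, and within WT none passed, where 0.24% did. In limma 1 of the 10 (Blk) had an unadjusted p under 0.05 in each genotype, beside 11.98% of all genes in KO and 20.9% in WT, and limma-voom on the recovered reads called 0 after adjustment.

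The 2 mature subsets were set against each other directly. Of the 10 genes, 4 were higher and 3 lower in MZ than in FO, where 19.9% and 17.1% of all genes were higher and lower, and none of the 10 was beyond 2-fold, as 9.2% of all genes were. Blk was higher by 0.97 ± 0.068 (SE; adjusted p = 1.5e-06) and Blnk by 0.75 ± 0.060 (SE; adjusted p = 3.9e-06). Blnk had 63.7 and 59.4 RPKM in KO FO and 61.2 and 65.2 RPKM in WT FO, all under every MZ library. Fgr was higher by 0.35 ± 0.080 (SE; adjusted p = 0.0056), with MZ values of 13.4 to 15.7 RPKM above FO values of 10.2 to 12.2 RPKM.

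Lyn had 162 and 147 RPKM in KO MZ and 143 and 144 RPKM in WT MZ, against 117 and 112 RPKM in KO FO and 114 and 116 RPKM in WT FO. Though the ranges were apart, its call was marginal (log2 difference 0.38 ± 0.13, SE, adjusted p = 0.047) and ended without any 1 of 12 libraries (adjusted p 0.051 to 0.13), with median-ratio scaling (0.066), with quantile normalization (0.064) and with no filter (0.083). Plcg2 was lower in MZ by -0.51 ± 0.078 (SE; adjusted p = 0.00046), its FO libraries holding 129 and 119 RPKM in KO and 133 and 126 RPKM in WT. Btk was lower by -0.40 ± 0.069 (SE; adjusted p = 0.0011), with 104 and 106 RPKM in KO FO and 102 and 109 RPKM in WT FO. Cd79a was lower by -0.43 ± 0.12 (SE; adjusted p = 0.018), with FO values of 1169.6 to 1245 RPKM above MZ values of 771 to 972 RPKM. The call of Cd79a ended without KO MZ replicate 1, WT MZ replicate 1, KO FO replicate 1, KO FO replicate 2 or WT FO replicate 1 (adjusted p 0.052 to 0.077) and with no filter (0.15). Syk was at 131 to 143 RPKM in MZ and 154 to 162 RPKM in FO, apart but not called (log2 difference -0.19, adjusted p = 0.070). It passed in 2 of the 16 fits without 1 library and in 4 of 10 other alternatives, such as a fit of MZ and FO alone (adjusted p = 0.028). Cd79b and Fyn overlapped.

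Because the genes differed in the size or the direction of their changes, their proportions within a library differed between subsets. These ratios are descriptions and were not tested. The Blk to Lyn ratio of RPKM was 2.82 to 3.36 in MZ libraries, against 1.11 to 1.76 in T1, 1.42 to 1.94 in T2 and 2.02 to 2.198 in FO. The Blnk to Btk ratio was 1.24 to 1.47 in MZ, so that the adaptor transcript exceeded the kinase transcript there, against 0.74 to 0.84 in T1, 0.56 to 0.58 in T2 and 0.56 to 0.61 in FO. Neither MZ range touched that of another subset. The Cd79b to Cd79a ratio was 1.27 to 1.52 in MZ and 1.18 to 1.31 in T1, against 1.04 to 1.23 in T2 and 0.91 to 1.13 in FO. Within MZ it was 1.52 and 1.38 in the KO libraries and 1.27 and 1.29 in the WT libraries. With 2 libraries a group such a split says little, and each of the 2 genes alone overlapped between KO and WT in MZ.

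**Figure D3:**
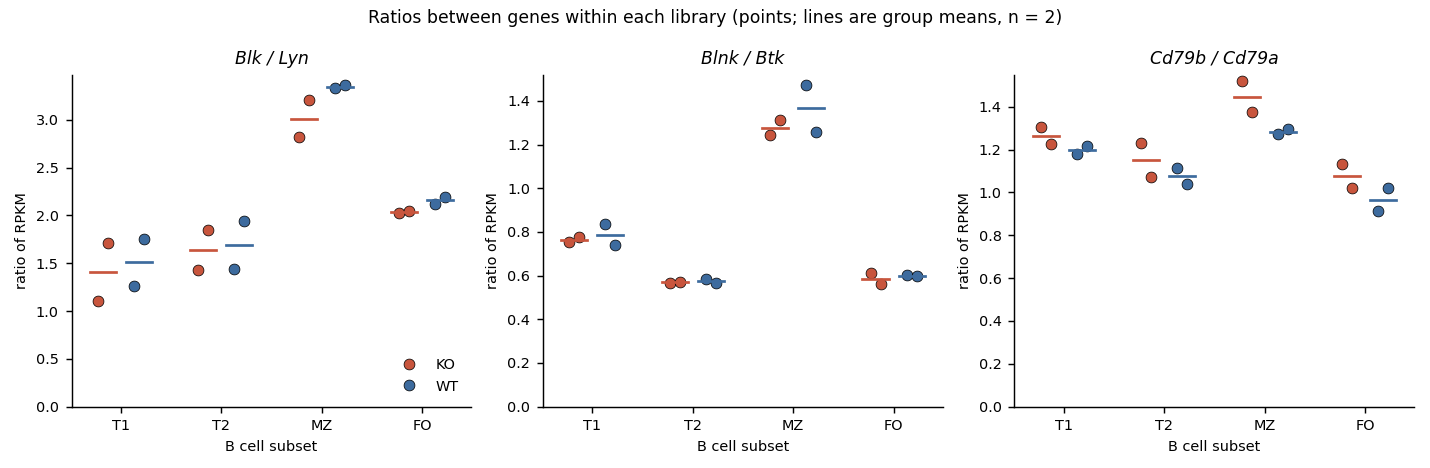
Ratio of RPKM between pairs of genes in each library (Blk to Lyn, Blnk to Btk, Cd79b to Cd79a) by subset, KO left of WT; points are libraries and lines group means. The MZ libraries of both genotypes stand apart for Blk to Lyn (2.82 to 3.36) and for Blnk to Btk (1.24 to 1.47).

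Summed over Lyn, Blk, Fyn and Fgr, Src family RPKM was 648 to 663 in MZ, against 420.2 to 484 in T1, 350.3 to 356 in T2 and 369 to 399 in FO. Blk made up 70.2% to 73.2% of that sum in MZ, 51.2% to 61.8% in T1, 54.6% to 60.2% in T2 and 61.8% to 63.8% in FO. Fyn and Fgr together never contributed more than a small part, with Fyn at most 5.40% and Fgr at most 3.31% in any library. The unequal share of Lyn in T1, from 35.2% to 46.2%, followed the split between the libraries numbered 1 and 2 described above.

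The tested genes were ranked by likeness to a member, leaving out immunoglobulin and T cell receptor segments and gene models with no given name. Those whose log2 levels ran most alike with Blk over the 16 libraries were Agrn (Pearson's r = 0.98), Blnk (0.98) and Guca2b (0.98). For Fgr they were Pglyrp2 (0.99), Chd7 (0.99) and Rras2 (0.98), and for Fyn Slc16a10 (0.97), Zfp28 (0.97) and Kbtbd11 (0.97). Only these 3 genes of the 10 spanned more than 1 on the log2 scale between group means. The points share 4 subsets, so each r mostly reflects 4 subset levels, and it is given as a description. Blnk was thus among the 3 genes most like Blk of those ranked.

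The promoter windows of Blnk and Cd79a are shown, the 2 genes whose window held the ETS family motif given below. Blnk stood at its highest and Cd79a at its lowest in MZ. Plcg2, Btk and Syk were also at their lowest there and Fgr at its highest, and their windows held no match. RefSeq (GRCm38.p6) gave a window of 250 bases before to 50 after a start site for 7 of the 10 genes. Each was searched on both strands for the ETS family motif AGGAAGT, the octamer ATTTGCAT and the EBF motif CCCNNGGG, which do not overlap one another in these windows, and matches are in capitals. The Blnk window, at chr19:40994172-40994471 on the minus strand, held the ETS motif 202 bases and the octamer 130 bases upstream of the start. The Cd79a window, at chr7:24897247-24897546 on the plus strand, held the ETS motif 55 bases upstream.
Blnk: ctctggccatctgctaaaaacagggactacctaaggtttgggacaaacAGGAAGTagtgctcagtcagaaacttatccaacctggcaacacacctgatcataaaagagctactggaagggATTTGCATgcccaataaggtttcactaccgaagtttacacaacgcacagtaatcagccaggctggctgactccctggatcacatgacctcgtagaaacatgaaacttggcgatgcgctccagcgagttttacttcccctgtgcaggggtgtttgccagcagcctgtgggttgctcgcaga
Cd79a: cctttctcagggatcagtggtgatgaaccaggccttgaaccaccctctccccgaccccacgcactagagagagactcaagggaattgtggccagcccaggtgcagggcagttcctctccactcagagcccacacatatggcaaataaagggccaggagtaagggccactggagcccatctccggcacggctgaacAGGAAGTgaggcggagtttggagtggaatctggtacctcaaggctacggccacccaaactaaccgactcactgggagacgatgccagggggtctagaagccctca
Of the other windows only that of Fyn held a match, to the EBF motif 39 bases upstream of its start. Of all 32851 windows of the same length 9.35% held the ETS motif, 1.74% the octamer and 13.7% the EBF motif. These are matches of letters and say nothing of binding.

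The wider pathway was read from 63 further genes, of which 60 were tested. Between MZ and T2, 14 of the 60 were higher and 21 lower in MZ, where 22.8% and 19.1% of all genes were, with a median of -0.16 beside 0.02 for all genes. Between MZ and FO, 11 were higher and 23 lower, where 19.9% and 17.1% of all genes were (median -0.13 beside 0.04). Between T2 and T1, 14 were higher and 11 lower, where 15.7% and 9.89% of all genes were. Between FO and T2, 10 were higher and 3 lower, where 4.72% and 4.88% of all genes were.

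Other kinases of the Syk, Tec and Src families also differed between subsets. Zap70, the Syk relative of T cells, averaged 5.83 RPKM in MZ, against 1.06 RPKM in T2 and 1.39 RPKM in FO (log2 differences 2.03 and 1.74). Syk itself did not pass in either in the main fit. Of the 5 natural killer cell markers Prf1 was at 6.85 to 12.1 RPKM in MZ, against 0.57 to 1.14 RPKM in T2, while Gzma was at 0.38 to 1.88 RPKM in MZ, against 1.14 to 5.35 RPKM in T2. The part of such transcripts in the level of Zap70 was not tested. Tec, the relative of Btk, was lower in MZ than in T2 (-1.08) and than in FO (-1.34), the direction that Btk also took. Lck, best known from T cells, was higher in FO than in T2 (0.98, adjusted p = 0.034), where the T cell markers summed to 14.6 to 27.5 RPKM in FO and 8.78 to 34.4 RPKM in T2.

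All 6 regulators of Src family kinases passed between MZ and T2, 2 higher and 4 lower, where 22.8% and 19.1% of all genes were higher and lower. Ptpn22, a phosphatase that dampens antigen receptor signals, averaged 74.1 RPKM in MZ, against 14.6 RPKM in T2 and 15.0 RPKM in FO, with log2 differences of 2.31 against T2 and 2.27 against FO. It had the largest rise of the 60 pathway genes in both comparisons. Ptprj, a receptor phosphatase that activates Src kinases, was lower in T2 than in T1 (-0.82, adjusted p = 0.0010). Among adaptors, Lax1, an inhibitory membrane adaptor, was higher in MZ than in T2 (1.66, adjusted p = 0.0027), Sh3bp2 was higher in T2 than in T1 (1.104), and Gab2, at 1.13 RPKM in T1, was lower in T2 (-0.86).

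Downstream of Plcg2, Rasgrp3, an exchange factor that diacylglycerol recruits to activate Ras, was the most strongly lowered of the 60 in MZ. It averaged 25.2 RPKM in MZ, against 73.8 RPKM in T2 and 76.1 RPKM in FO (log2 differences -1.54 and -1.58), and was higher in T2 than in T1 by 1.53. Dgka, which removes diacylglycerol, was lower in MZ too, at 63.2 RPKM against 118 RPKM in T2 and 144 RPKM in FO (-0.89 and -1.18). Nfatc2, a calcium-dependent transcription factor, was higher in T2 than in T1 (1.56) and in FO than in T2 (1.15), from a level of 0.55 RPKM in T1. Orai1, the pore of the store-operated calcium channel, was higher in FO than in T2 (0.69), and Rasgrp1 (-0.62), another exchange factor for Ras, was lower.

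**Figure D4:**
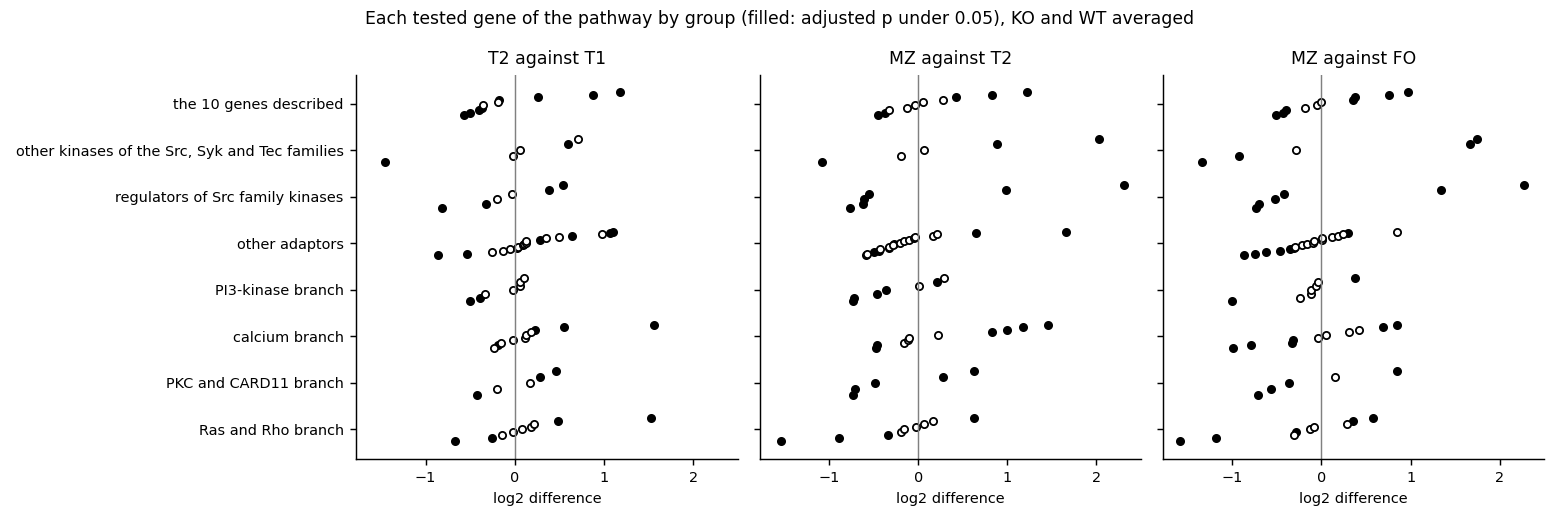
log2 difference of each of the 10 genes (top line) and of the 60 other tested pathway genes by group, genotypes averaged, in 3 comparisons; filled points have an adjusted p under 0.05. In MZ, regulators of Src family kinases lie at both ends (2 higher and 4 lower against T2), with Ptpn22 farthest to the right at 2.31 against T2.

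The study's central contrast was KO against WT. In none of the 4 subsets did any of the 10 genes pass, where the share of all genes that passed was 0.04% for T1 cells, 0.048% for T2 cells, 0.064% for MZ cells and 0.04% for FO cells. With the subsets averaged, 0 of the 10 passed, beside 0.232% of all genes. None of the 10 had an unadjusted p under 0.05 in limma in any of these comparisons, where the share of all genes was 3.51% for T1, 3.37% for T2, 1.65% for MZ, 0.919% for FO and 7.98% for the average, and limma-voom on the recovered reads called 0 as well. None of the 60 other pathway genes passed between KO and WT either.

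The ratio of the KO mean to the WT mean lay between 0.91 and 1.13 over the 10 genes and 4 subsets. The largest log2 difference was that of Fyn in T1, at 0.16 (95% interval -0.20 to 0.53), with 8.06 and 10.1 RPKM in KO T1 and 7.25 and 8.88 RPKM in WT T1, which overlapped. The most negative was that of Cd79a in MZ, at -0.14 (95% interval -0.52 to 0.24). Blnk in MZ had 106 and 103 RPKM in KO and 109 and 105 RPKM in WT, a log2 difference of -0.04 (95% interval -0.23 to 0.15). Blk in MZ differed by -0.05 (95% interval -0.26 to 0.16), all 457 to 471 RPKM of KO lying just under the 477 to 486 RPKM of WT. The widest bounds of the 40 intervals were -0.52 and 0.53 on the log2 scale, and the standard errors ran from 0.085 to 0.19.

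The change between T2 and MZ was also compared between genotypes through an interaction term. For this and for the change between T2 and FO, 0 of the 10 genes passed, beside 0.008% of all genes in each, and 0 had an unadjusted p under 0.05, beside 1.66% and 0.983% of all genes. The rise of Blk in MZ differed by -0.03 on the log2 scale between KO and WT (95% interval -0.33 to 0.27), and that of Blnk by 0.004 (95% interval -0.26 to 0.27). For Plcg2 the difference was 0.02 (95% interval -0.33 to 0.36) and for Btk 0.08 (95% interval -0.22 to 0.39). For Cd79a it was -0.17 (95% interval -0.71 to 0.36), the largest of the 20 in size.

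**Figure D5:**
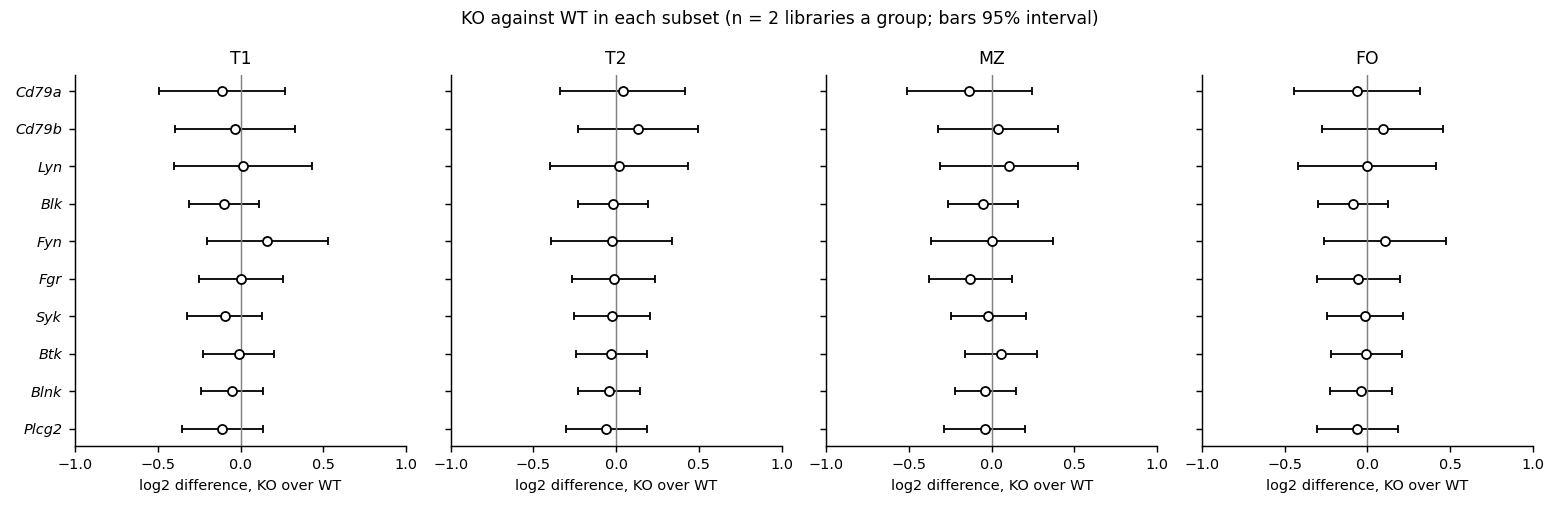
log2 difference of KO over WT for each of the 10 genes in the 4 subsets; points are fitted differences and bars 95% intervals, with 2 libraries a group. All 40 intervals span 0, and the differences run from -0.14 (Cd79a in MZ) to 0.16 (Fyn in T1).

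Since the deleted gene encodes a microRNA, the 3′ untranslated regions of the 10 transcripts were searched for matches to its seed. The mature strand miR-146a-5p is printed first with its seed, bases 2 to 8, in capitals, and the matches in the transcripts follow, each in capitals within 30 bases of the GRCm38 reference.
miR-146a-5p: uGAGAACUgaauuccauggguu
Cd79a: ttctaggttcaAGTTCTCAcctgaccactt
Cd79b: atggagtaaggAGTTCTCtggggatagact
Syk, first site: ttagaccagtgGTTCTCAaccttcctaatg
Syk, second site: tctgagcaagaAGTTCTCtgctgagctcct
Plcg2: tgaacttccctGTTCTCAgcctcattgaat
Of the 10 genes 4 held at least 1 match (Cd79a, Cd79b, Syk and Plcg2), and of the 10294 tested genes with an annotated 3′ untranslated region 21.8% did. The full 8-base match was found in Cd79a alone, at chr7:24901970-24901977 on the plus strand, base 429 of a region of 656 bases, and in 5.03% of all those genes. Cd79b held a 7-base match at chr11:106311598-106311604 on the minus strand, and Plcg2 one at chr8:117635099-117635105 on the plus strand. The matches in Syk lay at chr13:52647439-52647445 and chr13:52647924-52647930 on the plus strand. A match is a description and no evidence of pairing. For the gene with the 8-base match, Cd79a, the KO against WT log2 difference averaged over subsets was -0.07 (95% interval -0.26 to 0.12), and for Blnk, with none, it was -0.04 (95% interval -0.14 to 0.05).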

How the data were processed

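The authors removed low-quality and adapter-containing single-end reads, aligned the rest to mm10 (GRCm38) with TopHat (at most 2 mismatches) and deposited RPKM values of the uniquely aligned reads, computed with their own Perl scripts. Tool versions and strand use were not given in the sources used here. Their own tests used DESeq and edgeR on read counts, which were not used here. Dividing RPKM by the value of 1 read gave whole reads within 0.01 reads at the annotated length for 13395 of the 23194 genes above 0. For the others the length was chosen by a search so that whole reads resulted, which makes their agreement no check. Limma-voom on the recovered reads was an alternative.

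The main test was limma 3.58.1 (R 4.3.3) with a variance trend on log2(RPKM + 0.5) over all 16 libraries and the 12507 genes with a mean above 1 RPKM in at least 1 group. P-values were adjusted over all these genes by Benjamini-Hochberg within each comparison, with a call made at an adjusted p under 0.05. The scale understates changes of low genes. Each group holds 2 libraries labelled as replicates, and p-values rest on the spread between these, estimated over all groups together. The labels do not say whether the 2 come from separate pools of spleens, and the main fit pairs no libraries. No RPKM value above 0 was shared by the replicates of a group. The test was also run on simulated counts with the same spread for every gene and no shared pools. That setting is simpler than these data and does not cover their uneven T1 libraries.

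All 10 genes are named. Of 63 other pathway genes, the 3 largest rises and 3 largest falls called in each subset comparison and any called between KO and WT are named, but some items are not reported here. The genes and lists were chosen with earlier results of these data known. Alternatives were 2 other pseudocounts, no filter, median-ratio scaling, quantile normalization, fewer libraries, the replicate block, limma-voom and the 2-fold criterion, and, chosen after seeing the data, leaving out both T1 libraries numbered 2 and a crossed block. Sequences came from RefSeq (GRCm38.p6) and from GRCm38 with GENCODE M21 annotation.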

Additional observations from a re-analysis of the deposited data

How the results depend on the processing

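The number of the 10 genes called between T2 and T1 (8) fell to 3 with quantile normalization, to 2 in a fit of those subsets alone and to 1 with the 2-fold criterion. That criterion also left 1 of 5 between MZ and T2 (also 1 in KO and 1 in WT), 0 of 1 between FO and T2 and 0 of 7 between MZ and FO. Between FO and T2 the count was 0 with no filter, with quantile normalization and in a fit of those subsets alone. Between MZ and T2 it was 2 in KO in a fit of the compared libraries and 3 in WT with quantile normalization, in place of 5 each. Leaving out each of the 16 libraries in turn gave 6 to 9 genes between T2 and T1, 5 to 6 between MZ and T2, 0 to 1 between FO and T2, 5 to 8 between MZ and FO, 2 to 5 between MZ and T2 in KO and 3 to 5 in WT. Every comparison of KO with WT, both interactions and both comparisons of FO with T2 within a genotype gave 0 under every alternative. The averaged calls of Blk, Blnk, Fgr, Btk and Plcg2 in MZ against T2 and against FO held under every alternative but the 2-fold criterion, which only Blk against T2 met. The 31 calls of single genes gave 829 values under alternatives, of which 706 kept the call, 123 lost it and 0 changed sign, and 28 of 3201 values of uncalled genes gained one. The cause of these changes was not tested. With the 8-base seed match alone, 1 of the 10 genes held a match in place of 4.

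The labels do not say what a replicate number marks, and the main fit did not use it. Pooled spleens were sorted into the subsets, so same-numbered libraries of a genotype may share a pool. Deviations of same-numbered libraries correlated at 0.19 to 0.44 between KO subsets, at 0.08 to 0.45 between WT subsets, and between KO and WT at 0.30 for T1, 0.16 for T2, -0.23 for MZ and -0.16 for FO. With the replicate block, 9 genes passed between T2 and T1, 7 between MZ and T2, 1 between FO and T2, 7 between MZ and FO and 0 between KO and WT in each subset, as also with numbers crossed in MZ and FO. Depth limited Fgr most, with 187 reads at the lowest.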
